A study of Rattus norvegicus with 24 samples.

Results

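Left ventricles of treadmill-exercised Dahl salt-sensitive rats, an inbred strain prone to hypertension on a high salt diet, were compared with those of sedentary rats at the 6-week time of the study. Both groups were chosen from the array titles alone: 3 exercise and 3 control arrays at 6 weeks, 6 of the 24 deposited columns. Per the labels, the rats arrived at 5 weeks of age and running began at 6 weeks of age. It lasted 6 weeks, a ramp of 3 weeks and then 3 weeks at 16 m/min on a 5 degree incline for 90 minutes a day, and the controls were sedentary rats of the same age. The labels state neither from when the 6 weeks of the titles were counted, nor the rats' sex, nor the hour at which hearts were taken. Whether each array came from its own animal is not stated either, and the p-values below reflect the spread between arrays, which may be technical. Total RNA was read on an Affymetrix rat array that measures a transcript with 1 or more probe sets, and values are deposited intensities in arbitrary units. Of the other columns, 7 distinct arrays came from rats on normal chow: 3 controls of 15 weeks, 1 control and 1 exercise array of 3 weeks, and 2 arrays of 3 weeks whose values were deposited identically as control and as exercise. These 7 arrays and the 6 compared are called the 13 non-salt arrays below. The high salt arrays, 3 each of 3, 6 and 15 weeks, came from rats on 6% NaCl. They entered the fit that sets the standard errors, and those of 6 weeks are quoted for some genes. The compared RNA carried the genes that define ventricular muscle: the 7 ventricular myocyte markers tested summed to 163964 to 211978 in the exercise arrays and 173975 to 235770 in the controls, and none of the 7 was called at its brightest probe set.

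The heart draws most of its energy from fatty acids. Fatty acids enter through the transporter CD36 and are burned in mitochondria, while pyruvate dehydrogenase admits carbon from glucose and is held inactive by pyruvate dehydrogenase kinases such as PDK4. Hypertrophy from exercise is usually described as growth with kept or raised oxidative capacity and without the return of fetal genes seen in pressure overload. The heart also keeps a circadian clock, whose output genes, among them Nr1d1 and Dbp, rise and fall through the day.

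Nr1d1 and Dbp were lower in the exercise arrays than in every other non-salt array, Dbp at both of its probe sets and Nr1d1 at 1 of 2, and the 250 bases upstream of their annotated start sites are shown for that reason. Clock activators bind the E-box CACGTG, which is its own reverse complement and is in capitals where found. Sequences are from RefSeq, build GRCr8, 5′ to 3′ on the gene's strand, and both genes matched.
Nr1d1, chr10:84229455-84229704, minus strand: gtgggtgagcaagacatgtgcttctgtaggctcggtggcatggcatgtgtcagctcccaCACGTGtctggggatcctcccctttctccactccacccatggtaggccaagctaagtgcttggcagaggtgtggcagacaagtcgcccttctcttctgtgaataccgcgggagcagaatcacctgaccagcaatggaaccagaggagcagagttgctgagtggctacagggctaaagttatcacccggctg
Dbp, chr1:105312006-105312255, plus strand: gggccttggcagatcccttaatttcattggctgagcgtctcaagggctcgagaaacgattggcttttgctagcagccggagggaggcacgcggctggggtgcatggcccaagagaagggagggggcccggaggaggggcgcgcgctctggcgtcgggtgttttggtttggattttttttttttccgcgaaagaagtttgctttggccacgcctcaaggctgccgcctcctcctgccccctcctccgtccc
The Nr1d1 window held 1 match, beginning 191 bases before the start site. A further annotated Nr1d1 start site, with the window chr10:84231813-84232062, and the Dbp window held none. Across 33469 windows of this length 1872 (5.59%) held the motif, and a match is a description of letters, not a site.

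The compared groups differed in a measure of RNA integrity, the signal of the 3′ end of a control transcript over that of its 5′ end, which is near 1 for intact RNA and higher where RNA is broken or copied short. The GAPDH ratio was 0.989, 1.12 and 1.03 in exercise arrays 1 to 3 and 1.58, 2.48 and 3.99 in control arrays 1 to 3. All 3 controls lay above all 3 exercise arrays, and control 1 was the nearest to them. The means were 1.05 ± 0.07 and 2.68 ± 1.21 (SD, n = 3 each), with a range of 1.05 to 1.58 in the 7 other non-salt arrays. The beta-actin ratio was 1.18 ± 0.19 against 2.67 ± 0.66 and the hexokinase ratio 2.23 ± 0.53 against 7.47 ± 4.10. In a two-sided exact permutation test each of the 3 gave p = 0.1, the smallest that 3 against 3 allows. The 3 exercise arrays were thus within or just below the other non-salt arrays, and the 3 controls at or above their highest GAPDH value. Within the 6 arrays, training and the ratio cannot be told apart. Most differences are therefore followed by the same exercise arrays against the 4 controls of 3 and 15 weeks, called the other controls below. Where useful, the fit with the GAPDH ratio as a covariate is given too. The other controls differ in age and in part in the ratio. Their GAPDH ratios were 1.10 in the 3-week control and 1.09, 1.52 and 1.58 in 15-week controls 1 to 3. A comparison with them does not hold the ratio equal.

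**Figure D1:**
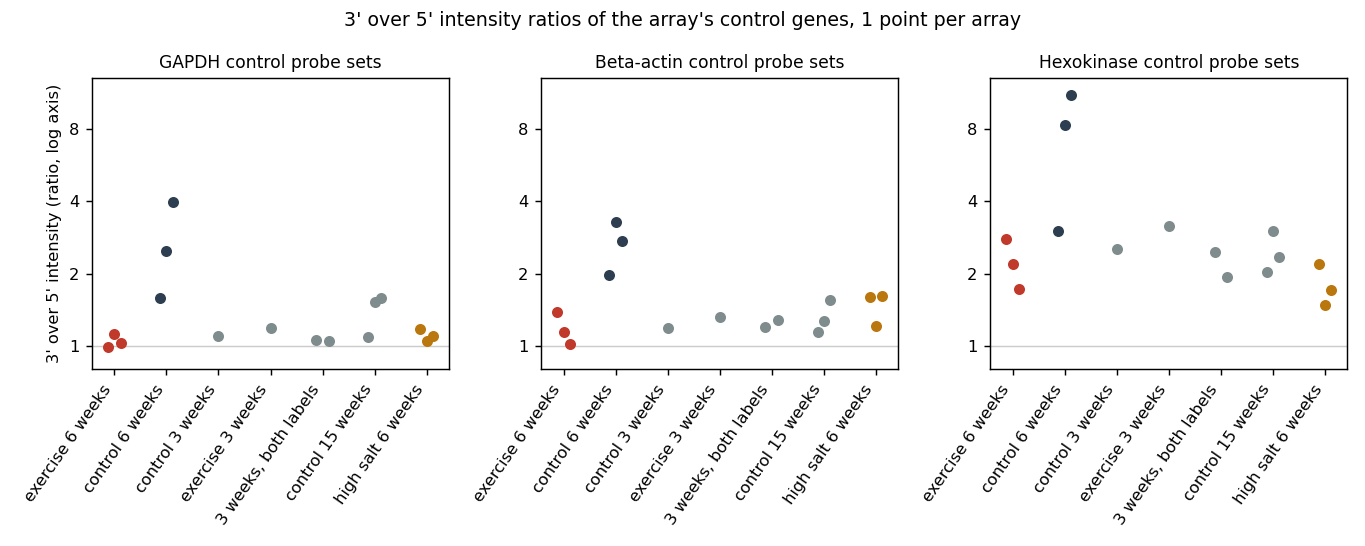
Ratio of 3′ to 5′ signal (log axis, no unit) of the GAPDH, beta-actin and hexokinase control probe sets in each array, by group; each point is 1 array. The GAPDH ratios of the 3 exercise arrays at 6 weeks lie between 0.989 and 1.12 and those of the 6-week controls between 1.58 and 3.99.

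Against the 6-week controls, 293 of 6555 tested probe sets (4.47%) rose and 220 (3.36%) fell at an adjusted p under 0.05. All folds are differences of log2(intensity + 40), which understates the change of dim genes, ± is the standard error of the limma fit from here on, and p is adjusted over all 6555 probe sets. The median difference over all probe sets was -0.12 (-0.04 after quantile normalization). Without control 2 or control 3 the calls came to 246 and 210, without control 1 to 859, and without exercise 2 or exercise 3 to 248 and 264, against 513 with all arrays. With the GAPDH ratio as a covariate 0 probe sets were called (0.00%), 471 had an unadjusted p under 0.05 and the smallest adjusted p was 0.11. The median standard error was 0.44 in that fit and 0.26 without the covariate. Without 1 of the 6 arrays in turn the covariate fit called 0 to 4.

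The same 3 exercise arrays differed from the other controls at 3 probe sets (0.0458%), both of Nr1d1 and that of Pdk4, with 540 at an unadjusted p under 0.05. Without exercise 1 the count was 10, and without control 3, 5. Against all 7 other non-salt arrays it was 2 (0.0305%), again Nr1d1. Control 1 was the control whose ratios were nearest to those of the other arrays. Against it alone, with its spread taken from the other groups and a median standard error of 0.36, the count was 6 (0.0915%): Nr1d1 at both probe sets (-2.36 and -1.90), Synpo (1.86), Epn1 (2.09), RT1-Bb (2.68) and 1 probe set with no single symbol. The 6-week controls themselves differed from the other controls at 157 probe sets (2.40%), 0 without control 2, 6 without control 3 and 610 without control 1. These comparisons share arrays, so their counts are not independent.

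Ranges over all 13 non-salt arrays were counted next. All 3 exercise arrays lay above the 10 other non-salt arrays in 34 probe sets (0.519%) and below them in 62 (0.946%). All 3 6-week controls lay above the other 10 in 337 (5.14%) and below them in 164 (2.50%). Without control 1 the last 2 counts were 970 and 540. Of the 293 called higher, the exercise arrays were outside in 10 (0.153% of all tested). The controls were outside in 100, of the 164 in which they lay below over all tested. Of the 220 called lower the same counts were 20 (0.305%) and 117, of the 337 above. A call rests on these same arrays and favours probe sets in which 1 of the groups stands apart, so these counts are only a description. The 10 higher included Cd36 (at both probe sets), Cd74, Rps15, Tgoln2, Bmyc and Pex2, and the 20 lower included Nr1d1, Dbp, Acta2, Sparc (at 2 probe sets), Gnai2, Ptgis, Rps9, Ppp1r10, Abi2, Dkc1, Phldb1, Fcgrt, Prph and Rpn2. The rest of these 30 had no single symbol. Without the 2 arrays of both labels the exercise arrays were above the rest in 118 probe sets and below in 116. Leaving out the 3-week exercise array, a choice made after seeing the data, gave 38 above and 73 below.

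Probe sets of 1 gene often differed in what they showed. Of the 3828 genes tested, the brightest probe set was called higher in 115 (3.00%) and lower in 139 (3.63%), while of the 1527 other probe sets 135 (8.84%) were called higher and 34 (2.23%) lower. Of 1124 genes with more than 1 tested probe set, 225 had a called one. In 71 of these another probe set had the opposite sign, and in 25 all were called. Pgm1, which interconverts glucose phosphates, was called at 1 probe set (2.57 ± 0.35, adjusted p = 0.00075, intensities 428, 467 and 485 against 68.3, 41.6 and 27.0), while its brightest gave -0.01 ± 0.21. Against the other controls these were 0.61 ± 0.32 and 0.20 ± 0.19. Acsl1, which activates long-chain fatty acids, gave 2.61 ± 0.51 at a dim probe set and -0.24 ± 0.24 at its brightest (1.46 ± 0.48 and -0.10 ± 0.23 against the other controls). Pygb, a glycogen phosphorylase, gave 2.71 ± 0.52, 0.95 ± 0.25 and, at the brightest, 0.16 ± 0.19 (1.47 ± 0.49, 0.31 ± 0.24 and -0.05 ± 0.18 against the other controls). The call at 0.95 was lost without control 2, control 3, exercise 1 or exercise 3 (adjusted p up to 0.16). Where a gene is given 1 value below, it is that of its brightest probe set unless said otherwise. Counts within gene lists are also of brightest probe sets, to be read beside 3.00% higher and 3.63% lower over all genes. The lists and their members were chosen with earlier results of these data known, so a count above these shares is not a test.

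**Figure D2:**
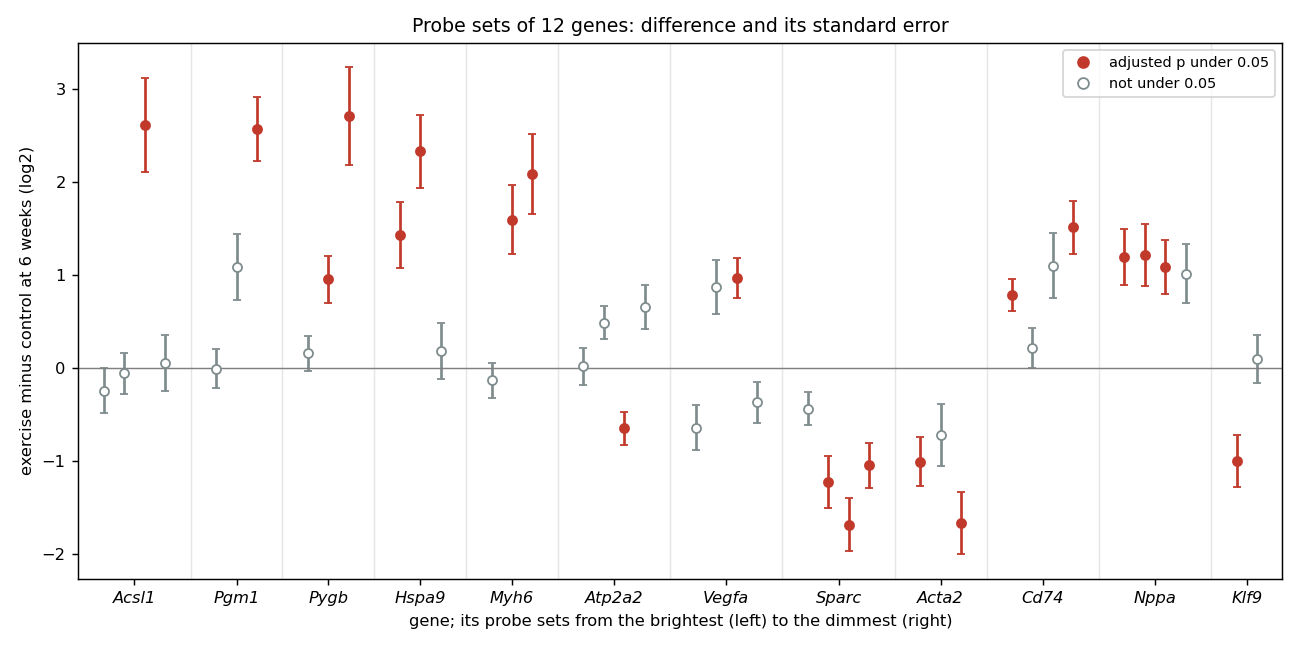
Difference between exercise and control at 6 weeks (log2, ± standard error) at each tested probe set of 12 genes, brightest on the left; filled points have an adjusted p under 0.05. The dim probe sets of Pgm1, Pygb and Acsl1 stand at 2.57, 2.71 and 2.61 while the brightest of these genes stand at -0.01, 0.16 and -0.24.

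Nr1d1, which encodes the clock repressor REV-ERBα, was lower in the exercise arrays under each reference. At 1 probe set it read 195, 169 and 188 in the exercise arrays and 1108, 450.1 and 1072 in the controls. The exercise arrays agreed closely and lay below every other non-salt array, of which the 7 outside the comparison ranged from 212 to 1498. The difference was -1.94 ± 0.30 (adjusted p = 0.0014), -2.28 ± 0.28 against the other controls and -1.91 ± 0.54 with the covariate. The brighter probe set read 341, 215 and 301 against 1159, 412 and 641, without overlap, and the 7 other arrays went from 325 to 2485. It fell by 1.16 ± 0.27 (adjusted p = 0.012, 0.071 without exercise 2), and the difference from the other controls was -2.35 ± 0.26 (adjusted p = 9.6e-05).

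Dbp, a clock-driven transcription factor, was also lower. Its dimmer probe set read 126, 117 and 119 in the exercise arrays, 633, 359 and 511 in the controls and 202 to 607 in the 7 others. The groups did not overlap, and all 3 exercise arrays were below all 10 others. The difference was -1.72 ± 0.37 (adjusted p = 0.0074) and -1.70 ± 0.35 against the other controls, where it was not called (adjusted p = 0.12). The brighter probe set read 384, 359.6 and 469 against 1951, 1048 and 1780.1 without overlap and below the 7 others (from 640.4), and gave -1.84 ± 0.56, just short of the threshold (adjusted p = 0.0502). Other clock genes were not called: the period gene Per2 gave -0.57 ± 0.25, Nr1d2, the paralog of Nr1d1, -0.62 ± 0.31, and the repressors Bhlhe40 and Bhlhe41 gave -0.21 ± 0.25 and -0.02 ± 0.29. Bmal1, the activator whose peak opposes that of Dbp, was dim, at 17.9, 31.5 and 18.8 in the exercise arrays and 28.4, 16.4 and 32.9 in the controls. Of the 9 clock genes tested, 1 was called, Nr1d1. In the 6-week high salt arrays Dbp read 180.0, 24.5 and 52.5, Nr1d1 452, 183 and 226 and Bmal1 26.3, 231 and 443, so low Dbp was not restricted to the exercised rats. The part of the hour of sampling in these differences was not tested.

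**Figure D3:**
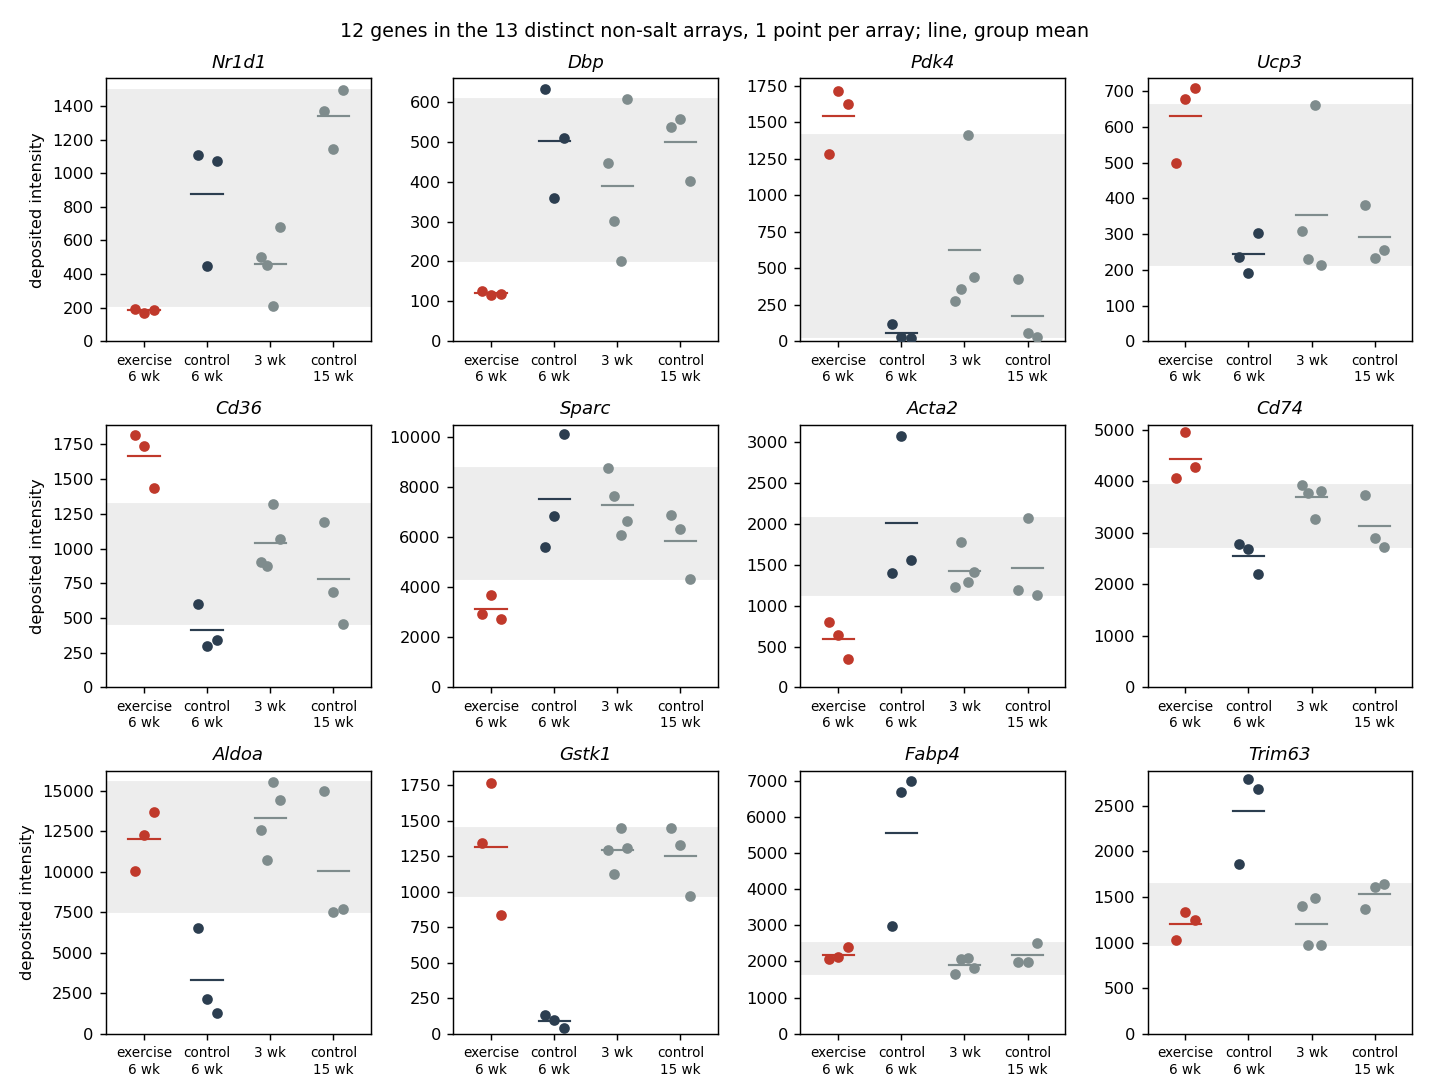
Intensity (arbitrary units) of 12 genes in the 13 non-salt arrays, among them exercise and control at 6 weeks, with group means as lines and the range of the 7 other arrays as a grey band. Nr1d1 and Dbp of the exercise arrays lie below the band, while for Aldoa, Gstk1, Fabp4 and Trim63 the 3 controls lie outside it.

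Pdk4, the kinase that shuts pyruvate dehydrogenase and so spares glucose, showed the largest rise of a named gene. It read 1281, 1714 and 1622 in the exercise arrays and 116, 26.2 and 24.7 in the controls. The exercise arrays were all high and similar, but the 7 other non-salt arrays spread from 29.6 to 1414 with a median of 356, and 1 of these 7 carries the exercise label and 2 carry both labels. The difference was 4.16 ± 0.53 (adjusted p = 0.00075), 3.14 ± 0.49 against the other controls (adjusted p = 0.0077) and 2.12 ± 0.76 with the covariate (adjusted p = 0.58). The 6-week high salt arrays read 564, 1260 and 2173. Of the 13 genes of pyruvate entry, 6 rose and 0 fell: Pdk4, Slc16a1 (a monocarboxylate transporter, 1.29 ± 0.29), Pdp1 (the opposing phosphatase, 1.75 ± 0.42), Pdk1, and the subunits Pdha1 (1.16 ± 0.28) and Pdhb.

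Of these 6, Pdk4 alone was called against the other controls. Pdha1 read 8291, 6985 and 8395 against 6771, 3277 and 1934, with 6546 to 8617 in the 7 others. Controls 2 and 3 were the low arrays, and control 1 was within the others' range. Pdha1 gave -0.02 ± 0.26 against the other controls, Slc16a1 0.36 ± 0.27 and Pdp1 0.76 ± 0.39. With 1 array left out the calls of Pdha1 (without control 2, control 3 or exercise 3, adjusted p up to 0.0917), Slc16a1 (without control 3, 0.0707) and Pdp1 (without control 3, exercise 1 or exercise 2, up to 0.0652) were lost. The list median was 0.61 and 0.02 against the other controls, beside -0.15 and -0.03 over all genes.

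Genes of fatty acid uptake and oxidation were counted next, and 6 of 27 tested rose and 1 fell. Cd36, the fatty acid transporter, read 1816, 1742 and 1436 in the exercise arrays and 600.1, 302 and 341 in the controls. All 3 exercise arrays lay above every other non-salt array, of which the 7 outside the comparison ranged from 457 to 1323. The difference was 1.96 ± 0.32 (adjusted p = 0.0017) at this probe set and 2.29 ± 0.44 at the brighter one. Against the other controls these were 1.07 ± 0.30 and 1.18 ± 0.41, neither called (adjusted p = 0.26 and 0.43), and with the covariate 0.84 ± 0.48 and 0.47 ± 0.60. The 6-week high salt arrays, at 968, 2095 and 1803, reached the same level. The others that rose were Acot2, a mitochondrial acyl-CoA thioesterase (2.91 ± 0.45, and 1.21 ± 0.42 against the other controls), the acyl-CoA synthetase Acsl6, the beta-oxidation enzymes Hadhb and Acadm, and the ketone body enzyme Bdh1. Fabp4, a fatty acid carrier of adipocytes and capillaries, fell: it read 2058, 2119 and 2389 against 2993, 6684 and 7001. The exercise arrays lay within the 7 others (1652 to 2511) and the controls above them, and the difference was -1.24 ± 0.24 (adjusted p = 0.0037) against 0.11 ± 0.22 from the other controls.

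Ucp3, a mitochondrial carrier induced by fatty acids, gave similar differences under each reference. It read 499, 680.0 and 710.4 in the exercise arrays and 236, 192 and 303 in the controls. The groups did not overlap, though the highest of the 7 other arrays, at 661, reached the exercise range (lowest 212, median 256). The difference was 1.24 ± 0.25 (adjusted p = 0.0051), 1.0 ± 0.24 against the other controls (adjusted p = 0.21) and 1.30 ± 0.45 with the covariate (0.56). The dimmer probe set rose by 1.43 ± 0.28. Ucp2, a relative, gave -0.01 ± 0.19 at its brightest probe set. Of the 18 mitochondrial regulators and carriers tested 2 rose, Ucp3 and the outer membrane channel Vdac1, which read 3916, 4036 and 3389.5 against 1025, 441 and 268 (2.82 ± 0.44, adjusted p = 0.0014). For Vdac1 the 7 other arrays spread from 821 to 3799, and the difference from the other controls was 1.02 ± 0.41. Ppargc1a, Tfam and Nrf1, regulators of mitochondrial number, were not measured.

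Of 28 genes of the respiratory chain and ATP synthase 1 rose, the complex I subunit Ndufs1, and 0 fell, a share close to the 3.00% higher over all genes. Ndufs1 read 728, 781 and 495 in the exercise arrays and 209, 100.2 and 104 in the controls. The groups were apart (2.02 ± 0.43, adjusted p = 0.0065), but the 7 other arrays spanned most of both, from 123 to 905. Of 11 citric acid cycle genes 2 rose: citrate synthase (Cs, 1.76 ± 0.42) and the isocitrate dehydrogenase subunit Idh3g (0.87 ± 0.23). Against the other controls Ndufs1 gave 0.89 ± 0.40, Cs 0.89 ± 0.39 and Idh3g 0.34 ± 0.22. The call of Cs was lost without control 3, exercise 1 or exercise 3 (adjusted p up to 0.073), and that of Idh3g without control 2, control 3, exercise 2 or exercise 3 (up to 0.153). The list medians were 0.10 for the respiratory chain and 0.43 for the cycle, and -0.16 and 0.07 against the other controls.

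Of 21 genes of glucose transport and glycolysis 2 rose and 2 fell. Aldoa, the muscle aldolase, read 10062, 12270.0 and 13725 in the exercise arrays and 6554, 2133 and 1262 in the controls. The exercise arrays were within the 7 others (7538 to 15528), and all 3 controls were below them. The difference was 2.17 ± 0.41 (adjusted p = 0.0032), 0.22 ± 0.38 against the other controls and -0.03 ± 0.40 with the covariate, while the controls of 6 weeks differed from the other controls by -1.95 ± 0.38. Pygm, the muscle glycogen phosphorylase, rose by 1.15 ± 0.28 (0.12 ± 0.26 against the other controls). Pgam2, a mutase of glycolysis, and Pfkfb2, which makes its activator fructose bisphosphate, fell, the latter by 1.01 ± 0.30 (0.13 ± 0.29). The calls of Pygm (without control 3 or exercise 2, adjusted p up to 0.0915) and Pfkfb2 (without any 1 array other than control 1, up to 0.213) were lost.

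Of 14 genes of cholesterol synthesis and uptake 2 rose: squalene synthase (Fdft1, 2.86 ± 0.57, adjusted p = 0.0044) and farnesyl diphosphate synthase (Fdps, 1.18 ± 0.29). Fdft1 read 676, 678 and 519.8 against 81.7, 49.6 and 29.0, and the 7 other arrays ranged from 119.9 to 992. Here too the 3 controls were below all other non-salt arrays, and the differences from the other controls were 0.89 ± 0.53 for Fdft1 and 0.06 ± 0.27 for Fdps. The call of Fdps was lost without control 2, control 3, exercise 2 or exercise 3 (adjusted p up to 0.0704). Lcat, which esterifies cholesterol in plasma lipoproteins, fell: it read 76.5, 89.0 and 22 against 313, 389.7 and 397. The exercise arrays were near or below the low end of the 7 others (76.6 to 176) and all 3 controls above their high end (-2.05 ± 0.32, adjusted p = 0.0014; -0.99 ± 0.30 against the other controls).

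The genes that mark a loaded or fetal-like ventricle gave no shared direction: 2 of 13 rose and 2 fell. The atrial natriuretic peptide Nppa read 4870.5, 2679 and 5998 in the exercise arrays and 3130.1, 1109 and 1820.4 in the controls, with 2806 to 6819 in the 7 others. Exercise 2 lay below control 1, so the groups overlapped. Nppa rose by 1.19 ± 0.30 (adjusted p = 0.019), and its difference from the other controls was 0.13 ± 0.28, not called. Its call was lost without control 2, control 3, exercise 1 or exercise 3 (adjusted p up to 0.122). The brain natriuretic peptide Nppb gave 0.18 ± 0.28, skeletal alpha-actin (Acta1) 0.13 ± 0.18 and the slow myosin heavy chain Myh7 -0.02 ± 0.23. The fast myosin Myh6 gave -0.13 ± 0.19 at its brightest probe set, while 2 others rose by 2.09 ± 0.43 and 1.60 ± 0.37 (-0.42 ± 0.18, 1.18 ± 0.40 and 0.02 ± 0.35 against the other controls). The call at 1.60 was lost without control 2, control 3 or exercise 3 (adjusted p up to 0.0808). Myh6, Myh7 and the actins are near-identical genes, and reads of their probe sets may cross. Desmin (Des), the muscle intermediate filament, gave 1.19 ± 0.36, with control 3 alone at 1612 against 5209 and 7958 in controls 2 and 1. Its call was lost without any 1 array other than control 1 (up to 0.244), and Des gave -0.83 ± 0.32 with the covariate and 0.20 ± 0.34 against the other controls.

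Of 19 sarcomere genes 1 fell, Pdlim3, a Z-disc scaffold. It read 1158, 1128 and 1148 against 2036, 2898 and 2247, with 1147 to 1573 in the 7 others. The controls were the high arrays here (-1.02 ± 0.19, adjusted p = 0.0030; -0.16 ± 0.18 against the other controls). Of 26 genes of calcium cycling 4 rose and 1 fell. Phospholamban (Pln), the brake on the calcium pump, read 8569.6, 7840.4 and 8738 against 4635, 2759 and 1406, with 3912 to 8815 in the 7 others. It rose by 1.66 ± 0.33 (adjusted p = 0.0045), with -0.18 ± 0.30 under the covariate and 0.62 ± 0.31 against the other controls. The calcium store protein Casq2 rose by 1.37 ± 0.30 (adjusted p = 0.0526 without control 2; 0.50 ± 0.28 against the other controls), and the release channel Ryr2 and its regulator Fkbp1a were also called. The pump itself, Atp2a2, gave 0.02 ± 0.20 at its brightest probe set and -0.65 ± 0.18 at another, whose call was lost without any 1 array other than control 1 (up to 0.125). Against the other controls these were -0.46 ± 0.18 and -0.24 ± 0.17. Further Atp2a2 probe sets went the other way, at 0.66 ± 0.24 and 0.49 ± 0.18, not called (0.57 ± 0.22 and 0.07 ± 0.17 against the other controls).

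Of 25 adrenergic and hormone receptor genes 2 rose and 1 fell, beside 3.00% higher and 3.63% lower over all genes. Adrb1, the main cardiac beta receptor, read 217, 180.4 and 156 against 67.7, 54.6 and 30.5, and the 7 others ranged from 61.2 to 222. It rose by 1.32 ± 0.27 (adjusted p = 0.0054), and the regulatory kinase subunit Prkar1a by 1.04 ± 0.24 (lost without control 2 or control 3, adjusted p up to 0.062). Against the other controls Adrb1 gave 0.48 ± 0.25 and Prkar1a 0.35 ± 0.23. The inhibitory G protein Gnai2 read 2481, 3034 and 2387 against 3464, 4009.9 and 6807, and 3425 to 5852 in the 7 others. All 3 exercise arrays were below all 10 other arrays. Gnai2 fell by 0.79 ± 0.22 (adjusted p = 0.033), the difference from the other controls was -0.93 ± 0.21, and the call was lost without any 1 array other than control 1 (up to 0.196). Of 17 channels and connexins the gap junction gene Gja1 rose (1.78 ± 0.46, lost without any 1 array other than control 1, adjusted p up to 0.0987) and the sodium channel Scn7a fell (-1.45 ± 0.27, adjusted p = 0.0031). Their differences from the other controls were 0.65 ± 0.43 and -0.36 ± 0.25.

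Of 34 matrix genes tested 1 rose and 4 fell, with a median of -0.42, and -0.26 against the other controls. Sparc, a collagen-binding matrix protein, read 2939, 3696 and 2711 in the exercise arrays and 5607, 6828 and 10109 in the controls at 1 probe set. All 3 exercise arrays were below all 10 other arrays, of which the 7 outside the comparison ranged from 4316 to 8750.3. The difference was -1.23 ± 0.28 (adjusted p = 0.010), and -1.03 ± 0.26 against the other controls (adjusted p = 0.22). Other Sparc probe sets gave -1.05 ± 0.24 and -1.69 ± 0.28, both called, and -0.44 ± 0.18 at the brightest, not called (0.13). The calls at -1.23 and -1.05 were lost without control 3 or exercise 3 (adjusted p up to 0.0725 and 0.073).

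The 4 matrix genes that fell were the secreted glycoprotein Fstl1, the collagen Col5a1, elastin (Eln) and the crosslinking enzyme Loxl1. Col5a1 read 542, 607 and 314 against 547, 1698 and 2978, with 677 to 1151 in the 7 others. Control 1 lay among the exercise arrays, and all 3 exercise arrays were below all 7 others. The difference was -1.51 ± 0.41, -0.95 ± 0.38 against the other controls and 0.66 ± 0.41 with the covariate. Fstl1 fell by 1.80 ± 0.43 (-0.93 ± 0.40 against the other controls, 0.19 ± 0.52 with the covariate) and Eln by 0.85 ± 0.25 (-0.63 ± 0.23 and -0.16 ± 0.40). Timp3, an inhibitor of matrix proteases, rose by 0.76 ± 0.23 (0.61 ± 0.21 against the other controls). Their calls were lost without 1 array: Timp3 without any of the 6 (adjusted p up to 0.143), Col5a1 without control 2, control 3 or exercise 3 (0.17), Fstl1 without control 3, exercise 2 or exercise 3 (0.0943) and Eln without any 1 array other than control 1 (0.226). The fibrillar collagen Col1a1 gave -0.51 ± 0.29, not called.

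Of 6 smooth muscle markers tested, 3 were called lower and 0 higher (the median was -0.93, and -0.21 against the other controls). Acta2, smooth muscle actin, read 797, 640.2 and 349.9 at 1 probe set against 1405, 3076 and 1561. The exercise arrays were below all 10 others, of which the 7 outside the comparison ranged from 1129 to 2066. It fell by 1.67 ± 0.33 (adjusted p = 0.0045), with -1.21 ± 0.31 against the other controls and -1.50 ± 0.59 under the covariate. The brightest Acta2 probe set fell by 1.01 ± 0.26 (-0.24 ± 0.25 against the other controls, -0.22 ± 0.41 under the covariate). A further Acta2 probe set gave -0.72 ± 0.33, not called (-0.14 ± 0.31 against the other controls, 0.05 ± 0.55 under the covariate). The actin-binding Tagln fell by 1.43 ± 0.30 and the smooth muscle myosin Myh11 by 0.95 ± 0.25. Tagln gave -0.38 ± 0.28 and Myh11 0.21 ± 0.23 against the other controls. The calls of Myh11 (without control 2, control 3, exercise 2 or exercise 3, adjusted p up to 0.14) and of the brightest Acta2 probe set (without control 2, control 3 or exercise 3, up to 0.137) were lost. The summed intensity of the 6 markers was 3388 to 6743 in the exercise arrays, 6399 to 15068 in the controls and 4826 to 7584 in the 7 others, and controls 2 and 3 were the 2 highest. In whole ventricle, fewer cells of a type and less RNA per cell cannot be told apart.

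Among vascular genes, 2 of 16 rose and 2 fell. Kdr, the main receptor of VEGF on endothelium, read 307, 273 and 145 against 689.9, 843 and 679, with 225 to 816 in the 7 others (-1.51 ± 0.31, adjusted p = 0.0049; -0.83 ± 0.29 against the other controls). The exercise arrays read below the median of the 7 others (312). Control 2 read above their highest value, and controls 1 and 3 were within their range. Vegfb, a ligand of the family, rose by 1.40 ± 0.33 and Egln3, a hydroxylase that marks hypoxia-inducible factors for decay, by 1.60 ± 0.32, with 0.16 ± 0.31 and 0.33 ± 0.30 against the other controls. The call of Vegfb was lost without control 2, control 3 or exercise 2 (adjusted p up to 0.0874). Vegfa gave -0.64 ± 0.24 at its brightest probe set, not called, and 0.97 ± 0.21 at another (adjusted p = 0.0087, 0.0534 without control 2). Ptgis, which makes prostacyclin, read 502, 403 and 364 against 787, 747 and 994, below the 7 others at 522 to 918 as well. It fell by 0.93 ± 0.23 (adjusted p = 0.015, up to 0.0851 without control 3, exercise 2 or exercise 3), and the difference from the other controls was -0.96 ± 0.21. The 6 endothelial markers tested, 2 of them called lower, summed to 1662 to 1943 in the exercise arrays, 2045 to 3135 in the controls and 1933 to 2752 in the 7 others. They shared no direction: 3 of the 6 were higher than in the 6-week controls. Their median was -0.07 (0.02 after quantile normalization), beside -0.15 over all genes, and -0.43 against the other controls.

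Of 36 genes of growth signalling 2 rose and 2 fell, beside 3.00% higher and 3.63% lower over all genes. Pik3r1, the regulatory subunit of phosphoinositide 3-kinase, which carries the insulin-like growth factor signal, was dim but higher: 58.2, 117 and 140.4 against 25.6, 17.3 and 27.2. The highest of the 7 other arrays, at 148, was higher still, and their median was 23.5. The difference was 1.15 ± 0.28 (adjusted p = 0.016), 1.21 ± 0.27 against the other controls and 1.17 ± 0.51 with the covariate. Its call was lost without control 2, exercise 2 or exercise 3 (up to 0.0867). Il6st, the shared receptor of interleukin-6 cytokines, rose by 0.97 ± 0.25 (lost without control 2, control 3, exercise 2 or exercise 3, up to 0.124) and gave 0.63 ± 0.23 against the other controls. The kinase Gsk3b, a brake on growth, fell by 0.92 ± 0.22 (lost without control 2 or control 3, up to 0.0715) and the binding protein Igfbp3 by 1.08 ± 0.30 (lost without any 1 array other than control 1, up to 0.16). These last 2 gave -0.18 ± 0.20 and -0.17 ± 0.28 against the other controls. Igf1 itself gave -0.66 ± 0.26, not called.

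Of 28 proteasome and atrophy genes 3 rose and 1 fell, beside 3.00% higher and 3.63% lower over all genes. Trim63, the muscle ubiquitin ligase MuRF1, fell. It read 1028, 1329.8 and 1244 against 1856, 2791 and 2680.2. The exercise arrays were within the 7 others (972 to 1639) and the controls above them (-0.99 ± 0.21, adjusted p = 0.0058; -0.32 ± 0.19 against the other controls). Of 20 immediate early genes and C/EBP factors 0 rose and 3 fell, each a transcription factor induced by acute signals: Nr4a1 (-1.51 ± 0.42), Klf9 (-1.0 ± 0.28) and Klf4 (-0.57 ± 0.16). Against the other controls they gave -0.07 ± 0.40, -0.33 ± 0.26 and 0.08 ± 0.15. All 3 calls were lost with 1 array left out: Nr4a1 without any 1 array other than exercise 1 (adjusted p up to 0.164), Klf4 without any 1 array other than control 1 (0.161) and Klf9 without control 2, control 3, exercise 2 or exercise 3 (0.171). Cebpb, a factor that restrains growth of the heart, gave 0.46 ± 0.26 at its brightest probe set and 1.45 ± 0.35 at another (lost without control 3 or exercise 3, up to 0.11). Cell death genes had 0 calls of 13, and of 17 cell cycle genes 1, the p53 target Ccng1 (1.68 ± 0.33, and 0.24 ± 0.31 against the other controls), rose.

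Antioxidant genes had 5 of 30 called higher and 0 lower (median 0.26, and 0.02 against the other controls). Gstk1, a glutathione transferase of mitochondria and peroxisomes, read 1345, 1764 and 837 against 135, 93.6 and 40.9. The 7 other arrays read 969 to 1449, so the 3 controls alone stood apart. The difference was 3.39 ± 0.72 (adjusted p = 0.0062) and 0.01 ± 0.67 against the other controls. With the covariate it was 2.82 ± 1.27. The peroxide-removing Gpx1 (0.79 ± 0.20) and Prdx3 (1.49 ± 0.34), the thioredoxin reductase Txnrd2 (0.78 ± 0.23) and Gstm2 were the others, and Gpx1, Prdx3 and Txnrd2 gave -0.12 ± 0.19, 0.60 ± 0.32 and 0.02 ± 0.21 against the other controls. Their calls were lost without 1 array (Gpx1 without control 2, control 3, exercise 1 or exercise 2, adjusted p up to 0.123; Prdx3 without control 3, 0.072; Txnrd2 without control 2, control 3, exercise 1 or exercise 2, 0.205).

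Of 20 chaperones 2 rose, the small heat shock protein Hspb6 (0.95 ± 0.24) and the mitochondrial Hspa9 (1.43 ± 0.36). Hspb6 read 13115, 15392 and 13349 against 11427, 7461 and 4308, with the exercise arrays within the 7 others (12283 to 16443), and gave -0.08 ± 0.22 against the other controls. Hspa9 gave 1.02 ± 0.33 there, not called (adjusted p = 0.37), and -0.08 ± 0.48 with the covariate. The calls were lost without control 3 or exercise 2 for Hspb6 (adjusted p up to 0.0943) and without control 3 or exercise 3 for Hspa9 (0.111).

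Cd74, the invariant chain of MHC class II of antigen-presenting cells, read 4059, 4963 and 4281 in the exercise arrays and 2784, 2690.4 and 2199 in the controls. All 3 exercise arrays were above all 10 others, of which the 7 outside the comparison ranged from 2736 to 3926. It rose by 0.79 ± 0.17 (adjusted p = 0.0075), and the difference from the other controls was 0.42 ± 0.16, not called (0.47). A dimmer probe set rose by 1.51 ± 0.29 and a further one gave 0.21 ± 0.22. Cd74 was the 1 called of 29 genes of inflammation and MHC. The 9 leukocyte markers tested (Cd8a and Itgam were too dim to be tested) summed to 5520, 7394 and 7076 in the exercise arrays, 4685, 4643 and 4969 in the controls and 4834 to 5489 in the 7 others. Without Cd74 the sums were 1461, 2431 and 2795 against 1901, 1952 and 2769, which overlapped.

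Ribosomal protein genes had 0 of 37 called higher and 5 lower (median -0.24, and -0.13 against the other controls), all by less than 1 log2 unit. Rps9, of the small subunit, read 4953, 5284 and 5099 against 8069, 7671 and 7468. The exercise arrays were below all 10 others (5566 to 7190.0 in the 7) and close to each other. Rps9 fell by 0.59 ± 0.15 (adjusted p = 0.022, lost without any 1 array other than control 1, up to 0.0678), and the difference from the other controls was -0.32 ± 0.14. Rps6 fell by 0.58 ± 0.17 and Rpl22 by 0.77 ± 0.23, with calls lost without any 1 array other than control 1 (up to 0.16) and without control 2, control 3, exercise 1 or exercise 3 (up to 0.157). Their differences from the other controls were -0.02 ± 0.16 and -0.36 ± 0.21. A dimmer Rps15 probe set rose: 1406, 1104 and 1661 against 697, 627 and 768, above all 10 others (524 to 931 in the 7). The difference was 0.94 ± 0.22 (adjusted p = 0.010, lost without control 2 or exercise 3, up to 0.0611), 0.82 ± 0.20 against the other controls and 1.08 ± 0.38 with the covariate.

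Genes outside these lists had varied roles, and where 2 values follow, the second is against the other controls. Hand2, a transcription factor of heart development, read 385, 394 and 461 against 77.7, 42.0 and 48.0, with 129 to 782 in the 7 others (2.26 ± 0.30, adjusted p = 0.00075; 0.47 ± 0.28 against the other controls). It was the 1 called of 10 cardiac transcription factors, and the 3 controls were again below all other arrays. Nptn, a cell adhesion molecule that partners calcium pumps, read 422, 422 and 587 against 44.3, 15.9 and 16.4 (2.99 ± 0.47; 1.85 ± 0.44 against the other controls), and the 7 others ranged from 17.2 to 543. Tgoln2, of the trans-Golgi network, read 198, 177 and 179.9 against 39.3, 22.1 and 28.7 and lay above the 7 others at 43.6 to 145 (1.69 ± 0.29, adjusted p = 0.0019; 0.83 ± 0.27). Bmyc, a relative of Myc, read 369, 259 and 352 against 70.6, 91.6 and 37.6, and the highest of the 7 others, at 259, was all but level with exercise 2 (1.80 ± 0.36; 0.92 ± 0.34). Dlgap4, a scaffold protein of synapses, had the largest fall of a named gene (36.8, 36.4 and 33.7 against 261.5, 279.6 and 481.5; -2.29 ± 0.43, adjusted p = 0.0031; -0.70 ± 0.40). Its exercise arrays were within the 7 others, at 23.6 to 224, and the controls above them. The same held for Ebf1, a transcription factor, at 57.0, 38.3 and 24.8 against 135.5, 262.3 and 231.4 with 9.1 to 76.4 in the 7 others (-1.62 ± 0.29; -0.06 ± 0.27). The membrane protein Mpzl1 fell by 1.69 ± 0.41 (-0.92 ± 0.39) and the membrane-bending Bin1, at a dim probe set, by 1.68 ± 0.43 (-1.03 ± 0.40). Both of these calls were lost without control 3, exercise 2 or exercise 3 (adjusted p up to 0.113 for Mpzl1 and 0.135 for Bin1). Lower outside all other arrays were Phldb1 (-0.99 ± 0.17; -0.48 ± 0.16), the Fc receptor Fcgrt (-0.91 ± 0.20, adjusted p = 0.0704 without control 3; -0.53 ± 0.19), the phosphatase subunit Ppp1r10 (-0.77 ± 0.20, lost without control 3, exercise 2 or exercise 3, up to 0.11; -0.32 ± 0.18) and a dimmer probe set of the nucleolar protein Dkc1.

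Read across the lists, the medians against the 6-week controls were spread more widely than those against the other controls. The median over the 3828 genes was -0.15 and -0.03. Pyruvate entry had the highest of the pathway lists, at 0.61 and 0.02, followed by the citric acid cycle at 0.43 and 0.07 and fatty acid oxidation at 0.38 and 0.16. Under the covariate these lists gave 0.19, -0.58 and -0.22. The lowest were cell death at -0.50 and -0.08, the matrix at -0.42 and -0.26, vascular growth at -0.40 and -0.20 and the clock at -0.34 and -0.32. Under the covariate these 4 stood at 0.15, 0.22, 0.01 and -0.56. The medians of the cholesterol, load, calcium, endothelial, leukocyte and adipocyte lists changed sign after quantile normalization. Of the medians of all 36 lists, 14 moved by more than the SD between the 3 exercise arrays without control 1, 9 without control 2 and 11 without control 3, and 3, 3 and 6 of the 36 changed sign.

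**Figure D4:**
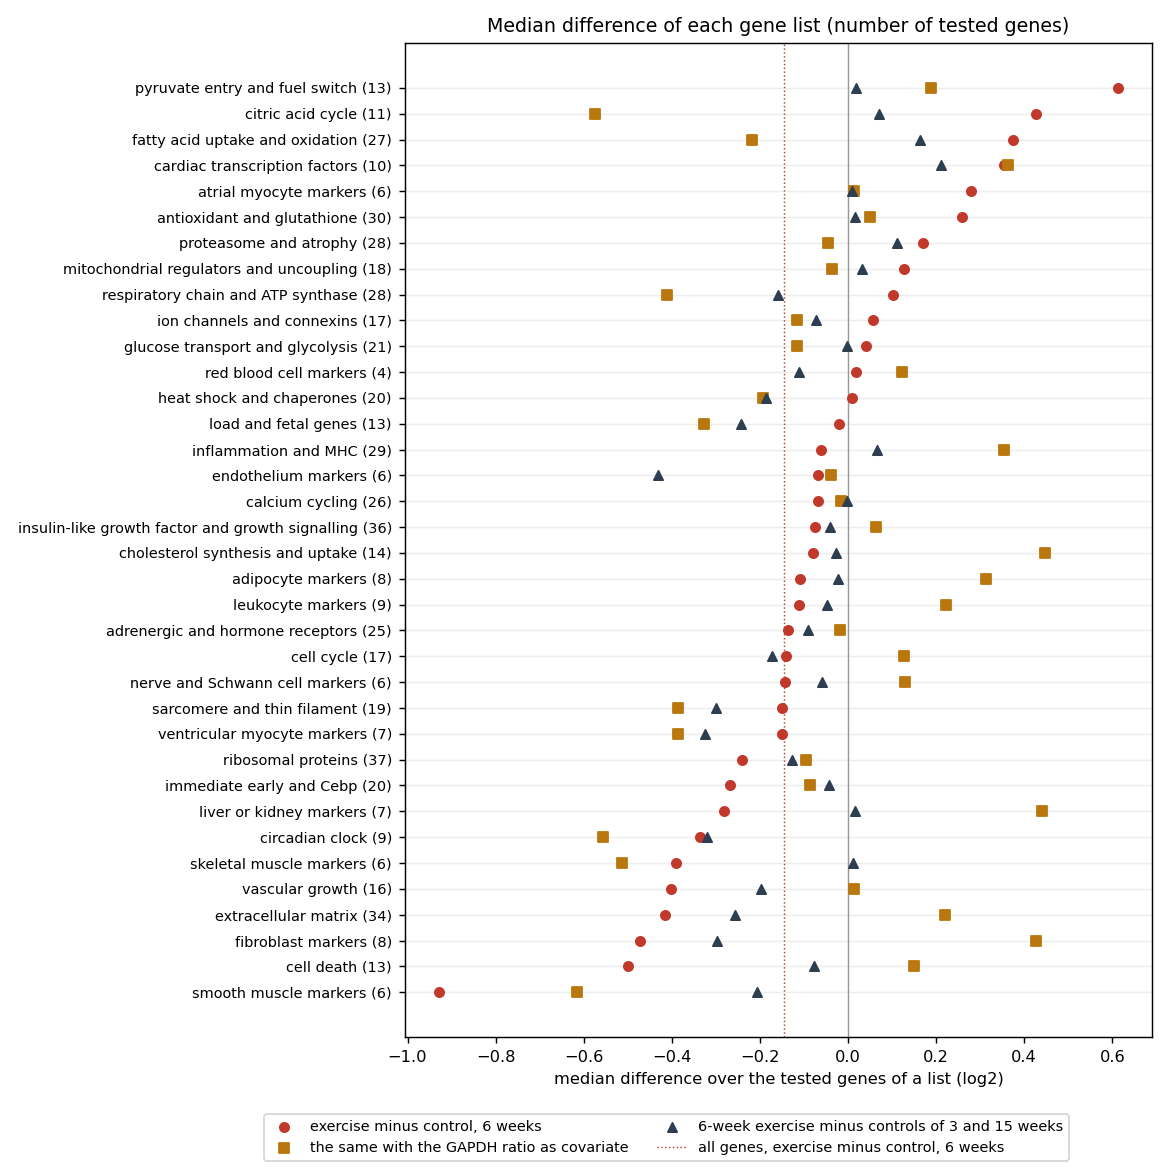
Median log2 difference of each gene list, taken over the brightest probe set of each gene. It is given between exercise at 6 weeks and the 6-week controls, and the same with the GAPDH ratio as a covariate. It is also given for exercise at 6 weeks against the other controls (those of 3 and 15 weeks). The dotted line marks the median over all genes against the 6-week controls, without the covariate. Pyruvate entry stands at 0.61 against the 6-week controls and at 0.02 against the other controls, and the clock at -0.34 and -0.32.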

How the data were processed

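Total RNA of rat left ventricles was measured on an Affymetrix array, and the authors deposited 1 intensity per probe set and array (8799 probe sets, 24 columns). How probes were summarised and background was removed is not given in the sources used here. With 2% trimmed at each end, column means were 500.767 to 501.021, so the deposited intensities had been scaled to a common level. No detection calls were used. Precision is limited by the array number. The 2 pairs of identical columns left 22 distinct arrays, and the 2 arrays that carry both labels of 3 weeks stayed out of the fit. Probe sets with 1 symbol (7018) were named from the platform annotation, those with several (308) or no entry (1473) were left unnamed, and each gene was represented by its brightest probe set unless stated. The upstream sequences are RefSeq's (GRCr8).

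Probe sets whose mean lay above the 25th percentile (6555) were tested as log2(intensity + 40) with limma 3.58.1 in R 4.3.3, with 1 mean per group over 20 arrays, 12 residual degrees of freedom, an intensity trend and Benjamini-Hochberg adjustment, threshold 0.05. The 40 is the rounded 25th percentile of the intensities. The fit was tested on simulated data. Alternatives were a lower and a higher pseudocount, no filter or one at the median, quantile normalization, a replicate block, array weights, a fit of the 6 compared arrays, all columns as deposited, the arrays of both labels as controls or as exercise, each array left out, 2 integrity covariates and 3 other references. The ranges without the 3-week exercise array, and the alternatives for the range of the 6-week controls, were added after seeing the data.

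Named genes were the 10 largest called changes in each direction without overlap, called genes outside the range of all other non-salt arrays, and members of the gene lists. The members and lists were chosen with earlier results of these data known. The labels do not say whether array numbers pair the groups, and the main fit used no pairing. Arrays of the same number had correlations of their deviations of -0.058, -0.035 and -0.024. Arrays of unlike number had -0.029 to 0.057. With 3 arrays a group these values cannot decide whether the arrays were paired.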

Additional observations from a re-analysis of the deposited data

Results flagged for a closer look

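The difference between the exercise effect at 6 weeks and that at 3 weeks passed the test at 1 of 6555 probe sets, of Alb, the gene of plasma albumin made by liver. The difference of the effects was -4.38 ± 0.61 (standard error, limma, adjusted p = 0.0043), while 641 probe sets had an unadjusted p under 0.05. The value rests on the single exercise array of 3 weeks, which read 886.7 for this Alb probe set, and on the single control of that week, so the test assumes that they vary like the other groups. At 6 weeks the exercise effect on Alb was -0.48 ± 0.31, not called. A second Alb probe set read 85.2 in the 3-week exercise array, and its difference of the effects was -0.78 ± 0.71. The 7 liver or kidney markers tested, the called Alb probe set among them, summed to 3535 in that 3-week array. They summed to 1474 to 2260 in the exercise arrays and 1602 to 2211 in the controls of 6 weeks. The part of these transcripts in the Alb difference was not tested.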

How the results depend on the processing

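For exercise against control at 6 weeks, 513 probe sets were called. Other pseudocounts, other filters, quantile normalization and both treatments of the arrays with both labels gave 440 to 663. The replicate block, which groups arrays by their number, gave 454, and 93 of the 98 called probe sets named kept their call under that block. The count was 252 in a fit of the 6 arrays alone (56 of 98 kept), 1731 with array weights, 775 with all columns as deposited, and 210 to 859 with 1 array left out. With the GAPDH ratio or the mean of the 3 ratios as a covariate it was 0 and 0. It was 6 against control 1 alone, 2 against the other non-salt arrays and 3 against the controls of 3 and 15 weeks. The last of these became 16 with array weights and 2 to 10 with 1 array left out. The covariate fit called 0 to 4 with 1 array left out. The cause of these changes was not tested, beyond the fewer arrays of some fits.

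The 157 probe sets that separate the 6-week controls from the controls of 3 and 15 weeks became 103 with no filter, 72 with the replicate block, 1309 with array weights, 789 with all columns, 670 and 284 with the arrays of both labels as controls and as exercise, and 0 to 610 with 1 array left out. The 1 probe set called for the difference between weeks became 6 with no filter, 0 with a filter at the median, 241 with array weights, 87 with all columns, 41 and 0 with the arrays of both labels as controls and as exercise, and 1 to 17 with 1 array left out. The 34 probe sets with all exercise arrays above all others became 118 without the arrays of both labels and 91 to 132 with 1 exercise array left out. The 62 below became 116 without the arrays of both labels, 37 after quantile normalization, 112 with no filter and 124 to 242. With 1 of the 6-week controls left out, their own 337 above became 440 to 970 and their 164 below 204 to 540.

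Of the 98 called probe sets named, 20 changed sign with the GAPDH covariate, 19 with the mean of the 3 ratios, 9 against the other non-salt arrays and 7 against the controls of 3 and 15 weeks, and 0 under the other settings. With the GAPDH covariate and with the mean ratio, in that order, the values were for Pdha1 -0.22 and -0.17, Slc16a1 -0.0083 and -0.034, Idh3g -0.0013 and -0.10, Aldoa -0.028 and -0.39, Pygb -0.081 and -0.073, the probe sets of Pygm -0.28 and -0.23 and, with the first alone, -0.021, Myh6 -0.13 and -0.58, Pln -0.18 and -0.056, Col5a1 0.66 and 0.82, Vegfb -0.16 and -0.36, Prdx3 -0.41 and -0.35, Hspb6 -0.18 and -0.21, Des -0.83 and -0.80, Ccng1 -0.19 and -0.14, and Fstl1 0.19 and 0.41. With the GAPDH covariate alone they were -0.0079 for Gpx1, -0.075 for Hspa9, 0.078 for Gnai2 and 0.021 for Bin1, and with the mean ratio alone 0.25 for Acta2, 0.066 for Tagln, 0.080 for Igfbp3 and 0.23 for Klf9. Against the other non-salt arrays and against the controls of 3 and 15 weeks, in that order, they were 0.12 and 0.11 for Fabp4, 0.18 and 0.21 for Myh11, 0.11 and 0.083 for Klf4, -0.082 and -0.12 for Gpx1, and -0.045 and -0.083 for Hspb6. Against the other non-salt arrays alone they were -0.082 for Myh6, -0.0057 for Gstk1, -0.042 for Txnrd2 and 0.13 for Rps6, and against the controls of 3 and 15 weeks alone -0.020 for Pdha1 and 0.13 for Pfkfb2.

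Of the medians of the 36 gene lists, 8 moved after quantile normalization, 10 with array weights and 5 with a filter at the median, and 6, 6 and 4 of the 36 changed sign. With exercise 1, 2 or 3 left out 6, 5 and 8 moved and 4, 2 and 6 changed sign.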
